A study of Homo sapiens with 6 samples.

Results

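The expression of 10 genes of the Notch pathway was compared between 231-BR cells and MDA-MB-231 cells. They were picked by gene symbol as 4 receptors (NOTCH1, NOTCH2, NOTCH3 and NOTCH4), 4 ligands (JAG1, JAG2, DLL1 and DLL4) and 2 target genes (HES1 and HEY1), and all 10 are among the 17039 genes of the table. MDA-MB-231 is a human triple-negative breast cancer cell line, called parental here, and 231-BR is a variant of it that homes to the brain. Poly(A) RNA of 3 libraries per cell line was sequenced. Cells of both lines grew in DMEM with 10% fetal bovine serum and 1% penicillin-streptomycin, and 200 μg/mL G418 was added for the 231-BR cells only, so the selection agent and the cell line cannot be told apart. The MDA-MB-231 cells were bought from ATCC and the 231-BR cells were a gift from Patricia Steeg. The source of the stock therefore cannot be told apart from the cell line either. Whether the parallel replicates were separate cultures is not stated, so the p-values measure the spread between these libraries, which may be technical.

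Notch receptors are membrane proteins that bind ligands of the Jagged and Delta-like families on a neighbouring cell. Binding lets ADAM proteases and then the gamma-secretase complex cut the receptor, and the freed intracellular domain joins the DNA-binding protein RBPJ and a Mastermind-like coactivator to switch on target genes. HES1 and HEY1 are among the best known of these targets and encode transcriptional repressors of the basic helix-loop-helix class. In breast cancer, Notch signaling and JAG1 are best known from the triple-negative subtype.

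Expression was given as FPKM, which counts fragments by transcript length and by the size of the library. This unit is per length, so that levels may be compared between genes. Read counts were not analysed here, and the sequencing depth is unknown. Fold changes compare 231-BR with MDA-MB-231 cells on the scale of log2(FPKM + 0.1), on which low genes are drawn toward 0. They were tested with limma over the 13465 genes whose mean FPKM reached 0.1, and adjusted p-values are those of this test with Benjamini-Hochberg adjustment. Errors of levels are the SD over 3 libraries, and those of log2 fold changes are standard errors (SE).

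The summed FPKM was 465020 to 472007 in the 231-BR libraries and 486937 to 496420 in the MDA-MB-231 libraries. All 5 markers of a mesenchymal triple-negative line (VIM, CD44, FN1, ZEB1 and AXL) were above 7 FPKM in every library. Of 6 markers of luminal or HER2-positive epithelium, CDH1 and PGR stayed under 0.1 FPKM in every library and ESR1 had 0.74 to 1.08 FPKM. ERBB2 had 9.61 to 10.23 FPKM in 231-BR cells against 4.75 to 5.08 FPKM in the parental cells. EPCAM had 8.34 to 9.31 FPKM in 231-BR cells against 4.44 to 5.49 FPKM, and GATA3 had 1.05 to 1.36 FPKM against 0.32 to 0.51 FPKM. The summed level of these 6 markers was 20.4 to 21.2 FPKM in 231-BR cells against 10.8 to 11.6 FPKM in the parental cells. The leukocyte markers in the table, 4 of 6, summed to 0.43 to 0.58 FPKM in the 231-BR libraries and 0.40 to 0.60 FPKM in the MDA-MB-231 libraries. Of the brain cell markers, 5 of 6 were in the table and summed to 20.9 to 21.4 FPKM in 231-BR cells against 12.8 to 14.3 FPKM in the parental cells, nearly all of it from MBP, while GFAP, AQP4 and SOX10 were at most at 0.07 FPKM. RBFOX3 had 0.10 to 0.16 FPKM in 231-BR cells against 0 to 0.03 FPKM in the parental cells.

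JAG1 rose and HES1 fell in 231-BR cells, each by more than 3-fold in mean FPKM. In bulk RNA, a change in how many cells express a gene and a change in its RNA per cell cannot be told apart. Among the receptors, NOTCH2 rose and NOTCH1 fell by less than 2-fold, and NOTCH4 and DLL4 rose from near 0 to levels still under 1 FPKM. JAG2 fell, and no difference was detected for NOTCH3 or HEY1. Of the 9 genes that could be tested, 4 were higher and 3 were lower in 231-BR cells with an adjusted p below 0.05. Among all genes tested 77.3% passed this threshold, 44.4% higher and 32.9% lower, so the number of Notch genes called is close to the background and what describes them is the direction and size of each change. Of all genes called, 57.4% were higher, and after quantile normalization 45.9% were higher, while NOTCH4, NOTCH2, JAG1 and DLL4 stayed higher and NOTCH1, JAG2 and HES1 stayed lower. For 7 of the 9 genes the values of the lines did not overlap at all, as was so for 78.4% of all genes tested. NOTCH4 and DLL4 passed the filter on low values only through the 231-BR libraries, where they were high. Of the other 7 genes tested, JAG1 and HES1, or 2, had a log2 fold change beyond 1 or -1 with an adjusted p under 0.05, and 15.2% of all genes tested did. The 9 genes had a median log2 fold change of 0.06, beside 0.08 for all genes tested. The thresholds used in the study (an adjusted p under 0.05, a log2 fold change beyond 1 or -1 and at least 1 FPKM, here as the mean in both lines) were met by JAG1, which was higher, and HES1, which was lower. Of all genes tested 6.45% met them, 4.68% higher and 1.77% lower.

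**Figure D1:**
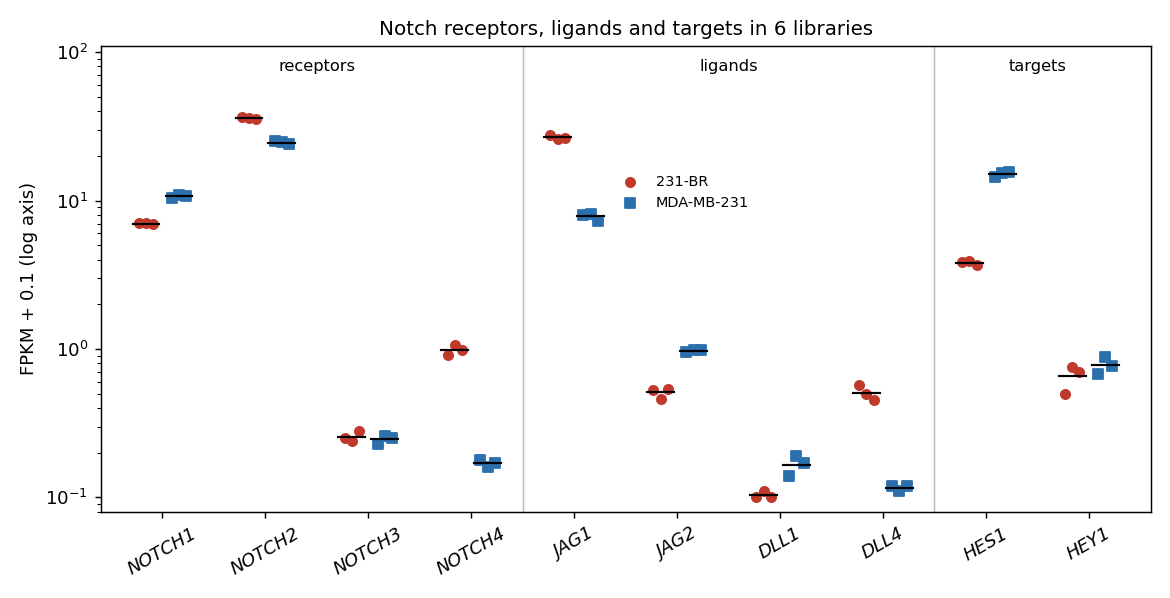
FPKM + 0.1 (log axis) of the 10 Notch genes in the 6 libraries, with red circles for 231-BR, blue squares for MDA-MB-231 and black bars for the mean of the 3 libraries of a line. JAG1, NOTCH2, NOTCH4 and DLL4 lie higher in all 231-BR libraries, HES1, NOTCH1, JAG2 and DLL1 lie lower, and NOTCH3 and HEY1 overlap.

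NOTCH2 was the most expressed receptor in both lines. The gene (Entrez 4853) lies on the minus strand of chromosome 1, from 119911553 to 120069626 in GENCODE release 29 on GRCh38. NOTCH2 had 36.31, 35.68 and 35.11 FPKM in the 231-BR libraries and 25.00, 24.55 and 23.94 FPKM in the MDA-MB-231 libraries. All 231-BR values were above all MDA-MB-231 values, with means of 35.7 ± 0.600 and 24.5 ± 0.532 FPKM (SD, n = 3 each). The log2 fold change was 0.54 (SE 0.030, adjusted p = 7.4e-08 from limma). The 4 NOTCH2NL genes in the table (NOTCH2NLA, NOTCH2NLB, NOTCH2NLC and NOTCH2NLR) are partial near copies of NOTCH2, and how reads were shared out between them is not stated. Their summed level was 6.02 ± 0.070 FPKM in 231-BR cells against 5.16 ± 0.298 FPKM in the parental cells (SD, n = 3 each), well below that of NOTCH2 itself.

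NOTCH1, the receptor often mutated in T-cell leukemia, changed in the opposite direction. It lies on the minus strand of chromosome 9, from 136494433 to 136545786 (Entrez 4851). NOTCH1 had 6.91, 6.92 and 6.85 FPKM in the 231-BR libraries and 10.38, 10.86 and 10.64 FPKM in the MDA-MB-231 libraries. The values of the lines were far apart compared with their spread, with means of 6.89 ± 0.038 and 10.6 ± 0.240 FPKM (SD, n = 3 each). The log2 fold change was -0.62 (SE 0.041, adjusted p = 3.0e-07 from limma).

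NOTCH4, a receptor best known from endothelial cells and from mammary tumors of mice, was a minor receptor in both lines. It lies on the minus strand of chromosome 6, from 32194843 to 32224067 (Entrez 4855). NOTCH4 had 0.81, 0.97 and 0.89 FPKM in the 231-BR libraries and 0.08, 0.06 and 0.07 FPKM in the MDA-MB-231 libraries. The 231-BR values were thus close to 1 FPKM and the MDA-MB-231 values close to the 2 decimals of the file. The mean in 231-BR cells was 12.7 times that in the parental cells, and the log2 fold change was 2.54 (SE 0.15, adjusted p = 1.1e-07 from limma), which became 0.82 with a pseudocount of 1 and 3.5 with a pseudocount of 0.01. An annotated transcript of GPSM3, on the same strand, shares exon sequence with NOTCH4. GPSM3 had 52.7 to 55.9 FPKM in 231-BR cells against 36.8 to 39.9 FPKM in the parental cells, and its part in the NOTCH4 values was not tested.

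NOTCH3 was low and did not separate the lines. It had 0.15, 0.14 and 0.18 FPKM in the 231-BR libraries and 0.13, 0.16 and 0.15 FPKM in the MDA-MB-231 libraries. The ranges overlapped, and the log2 fold change was 0.06 with a 95% interval of -0.34 to 0.45 (adjusted p = 0.781 from limma). NOTCH3 (Entrez 4854, chromosome 19, 15159038 to 15200981, minus strand) lies where its 40 neighbouring genes, 20 on either side, had a median log2 fold change of 0.96. For the other 9 Notch genes the median lay between -0.33, at NOTCH1, and 0.27, at HEY1, over 40 neighbours each except 27 for JAG2 and 24 for DLL1.

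Within the summed FPKM of the 4 receptors, NOTCH2 made up 81.8% ± 0.332 in 231-BR cells and 69.3% ± 0.808 in the parental cells (SD, n = 3 each). NOTCH1 made up 15.8% ± 0.142 and 30.1% ± 0.788 (SD, n = 3 each). A share within a library does not change with the scaling of that library. In each 231-BR library the level of NOTCH2 was 5.13 to 5.25 times that of NOTCH1, and in each MDA-MB-231 library it was 2.25 to 2.41 times. The summed level of the receptors was 43.6 ± 0.578 FPKM in 231-BR cells against 35.3 ± 0.468 FPKM in the parental cells (SD, n = 3 each). The order of the receptors was NOTCH2, NOTCH1, NOTCH4 and NOTCH3 in 231-BR cells, and in the parental cells the last of them was NOTCH4 instead of NOTCH3. No neighbours in either order overlapped.

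JAG1 was the main ligand of both lines and had the lowest p-value among the members that rose. Jagged1 is a ligand whose loss of function causes Alagille syndrome, and its gene (Entrez 182) lies on the minus strand of chromosome 20, from 10637684 to 10673999. JAG1 had 27.57, 25.84 and 26.25 FPKM in the 231-BR libraries and 7.89, 8.05 and 7.18 FPKM in the MDA-MB-231 libraries. The lowest 231-BR value was thus more than 3 times the highest MDA-MB-231 value. The means were 26.6 ± 0.904 and 7.71 ± 0.463 FPKM (SD, n = 3 each), with a log2 fold change of 1.77 (SE 0.049, adjusted p = 6.2e-10 from limma). Ranked among all genes of the table by mean FPKM, JAG1 stood at percentile 81.4 in 231-BR cells and 59.4 in the parental cells. An exon of the gene is overlapped on the opposite strand by AL050403.2, which was not used here, and the sources used here do not say whether the counting used the strand.

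JAG2, the other Jagged ligand (Entrez 3714, chromosome 14, 105140981 to 105168824, minus strand), moved the other way. It had 0.43, 0.36 and 0.44 FPKM in the 231-BR libraries and 0.85, 0.88 and 0.89 FPKM in the MDA-MB-231 libraries. Every 231-BR value was below every MDA-MB-231 value, and the log2 fold change was -0.94 (SE 0.12, adjusted p = 4.8e-05 from limma). It was -0.41 with a pseudocount of 1. AL512356.1, not used here, shares exon sequence with JAG2 on the same strand. The level of JAG1 was 59.7 to 71.8 times that of JAG2 within the 231-BR libraries and 8.07 to 9.28 times within the MDA-MB-231 libraries.

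DLL4, a Delta-like ligand best known for its role in the sprouting of blood vessels, was low but present in 231-BR cells. Its gene (Entrez 54567) lies on the plus strand of chromosome 15, from 40929333 to 40939073. DLL4 had 0.47, 0.40 and 0.35 FPKM in the 231-BR libraries and 0.02, 0.01 and 0.02 FPKM in the MDA-MB-231 libraries. The MDA-MB-231 values lie within 2 steps of the rounding of the file, so the size of the change is poorly fixed. The log2 fold change was 2.11 (SE 0.18, adjusted p = 2.3e-06 from limma), and it was 0.47 with a pseudocount of 1 and 3.98 with a pseudocount of 0.01.

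DLL1 had the lowest mean of the 10 genes over the 6 libraries, which was under the filter, and was not tested. It was listed at 0, 0.01 and 0 FPKM in the 231-BR libraries and at 0.04, 0.09 and 0.07 FPKM in the MDA-MB-231 libraries. Its values did not overlap between the lines, and the log2 fold change was -0.68, which passed the test when the filter on low values was dropped (adjusted p = 0.00302 from limma).

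Of 8 endothelial markers listed beside NOTCH4 and DLL4, CDH5, VWF, TEK, ERG and EMCN were under 0.1 FPKM in every library, and CLDN5 reached at most 0.10 FPKM. KDR had 1.39 to 1.64 FPKM in 231-BR cells against 0.46 to 0.63 FPKM in the parental cells, and PECAM1 had 0.37 to 0.48 and 0.15 to 0.21 FPKM. The summed level of the 8 markers was 1.88 to 2.23 FPKM in 231-BR cells against 0.73 to 0.98 FPKM in the parental cells. Their part in the NOTCH4 and DLL4 values was not tested.

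JAG1 made up 97.0% ± 0.147 of the summed FPKM of the 4 ligands in 231-BR cells and 88.9% ± 0.855 in the parental cells (SD, n = 3 each). JAG2 made up 1.5% ± 0.138 and 10.1% ± 0.697 (SD, n = 3 each). The summed level of the ligands was 27.4 ± 0.974 FPKM in 231-BR cells against 8.66 ± 0.451 FPKM in the parental cells (SD, n = 3 each), and JAG1 alone differed by 18.8 FPKM. In 231-BR cells JAG2 and DLL4 overlapped in level, whereas the order of JAG1, JAG2, DLL1 and DLL4 in the parental cells was without overlap. DLL1 and DLL4 were under 0.1 FPKM in every parental library, so their order rests on values near the rounding of the file. JAG1 stood at 3.73 to 3.99 times the level of NOTCH1 in the 231-BR libraries, against 0.675 to 0.760 times in the MDA-MB-231 libraries.

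**Figure D2:**
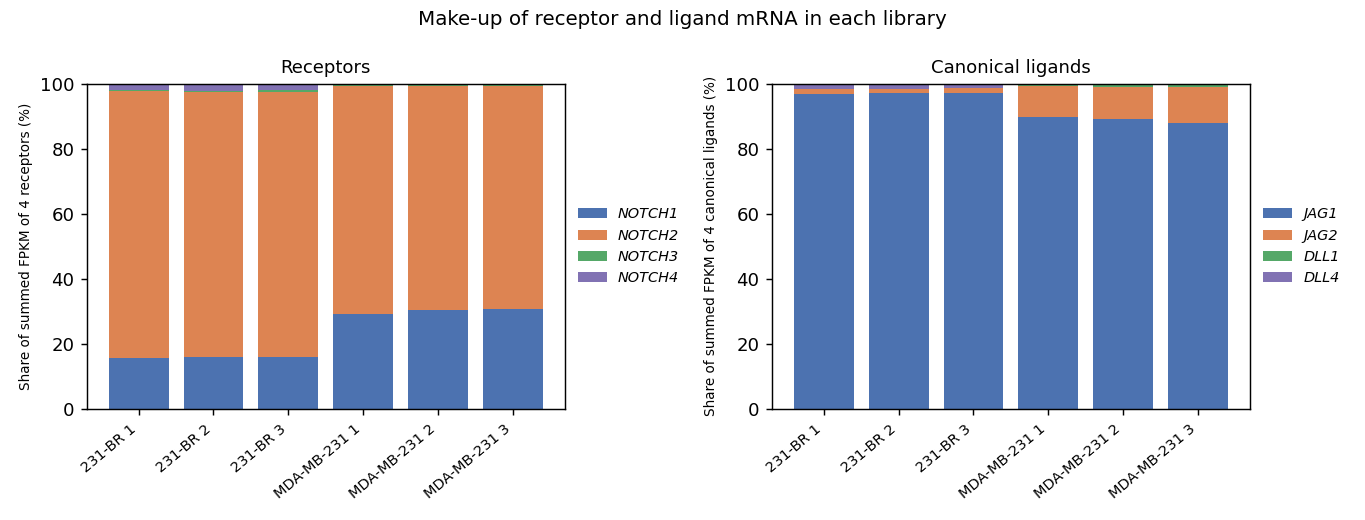
Share of each receptor (left) and each ligand (right) in the summed FPKM of the 4 genes of its kind, in percent, with 1 bar per library. NOTCH2 and JAG1 take the largest share in every library, and the shares of NOTCH1 and JAG2 are smaller in the 3 231-BR libraries than in the 3 MDA-MB-231 libraries.

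HES1 had the largest decrease of the 9 genes tested on the scale of log2(FPKM + 0.1). Its product represses genes of differentiation and also its own promoter. The gene (Entrez 3280) lies on the plus strand of chromosome 3, from 194136145 to 194138732 in GENCODE. The 250 bases before its start in RefSeq, which lies a few bases downstream of the GENCODE start, are shown here because HES1 is a direct target of RBPJ, and the 6 letters TGGGAA, the core of the RBPJ motif, are set in capitals. The sequence is that of RefSeq on GRCh38.p14, chr3:194135898-194136147, plus strand, 5′ to 3′.
HES1 promoter: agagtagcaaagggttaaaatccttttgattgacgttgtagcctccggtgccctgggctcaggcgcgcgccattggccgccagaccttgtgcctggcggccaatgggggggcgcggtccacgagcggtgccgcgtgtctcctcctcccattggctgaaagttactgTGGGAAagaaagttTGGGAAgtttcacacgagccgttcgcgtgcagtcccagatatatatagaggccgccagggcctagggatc

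The matches begin 84 and 70 bases before the RefSeq start, both on the plus strand, and do not overlap. On either strand, at least 1 match was found in 20.8% of the 35116 promoter windows of this length, and 2 or more were found in 2.90%. Windows were found for 8 of the 10 Notch genes (not for DLL1 and HEY1), and HES1 was the only one of the 8 with a match. Among the other pathway genes searched, EGFL7, LFNG, FURIN, RBPJ and HES4 had a match in at least 1 of their windows. The rest, NRARP among them, had none. With the longer GTGGGAA, HES1 kept 1 match, and 5.43% of all windows had at least 1. These are matches of letters and not measured binding. Variants of the motif with other letters were not searched, so unmarked bases and windows without a match may still hold RBPJ sites.

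HES1 had 3.76, 3.79 and 3.57 FPKM in the 231-BR libraries and 14.36, 15.20 and 15.51 FPKM in the MDA-MB-231 libraries. Every 231-BR value was under 4 FPKM and every MDA-MB-231 value was above 14 FPKM. The means were 3.71 ± 0.119 and 15.0 ± 0.595 FPKM (SD, n = 3 each), a level 4.05 times higher in the parental cells. The log2 fold change was -1.99 (SE 0.049, adjusted p = 2.8e-10 from limma). By mean FPKM, HES1 stood at percentile 46.2 of all genes in 231-BR cells and 71.9 in the parental cells. Its 40 neighbouring genes had a median log2 fold change of 0.15.

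HEY1, which encodes a repressor related to HES1 and lies on chromosome 8 (Entrez 23462), was low in both lines. It had 0.40, 0.66 and 0.60 FPKM in the 231-BR libraries and 0.58, 0.79 and 0.67 FPKM in the MDA-MB-231 libraries. The ranges overlapped, and the log2 fold change was -0.27 with a 95% interval of -0.67 to 0.13 (adjusted p = 0.191 from limma). It was -0.09 without 231-BR replicate 1 and -0.17 without MDA-MB-231 replicate 2, neither past the test. After quantile normalization it was -0.70 (adjusted p = 0.00394 from limma), so the call for HEY1 depends on the scaling.

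**Figure D3:**
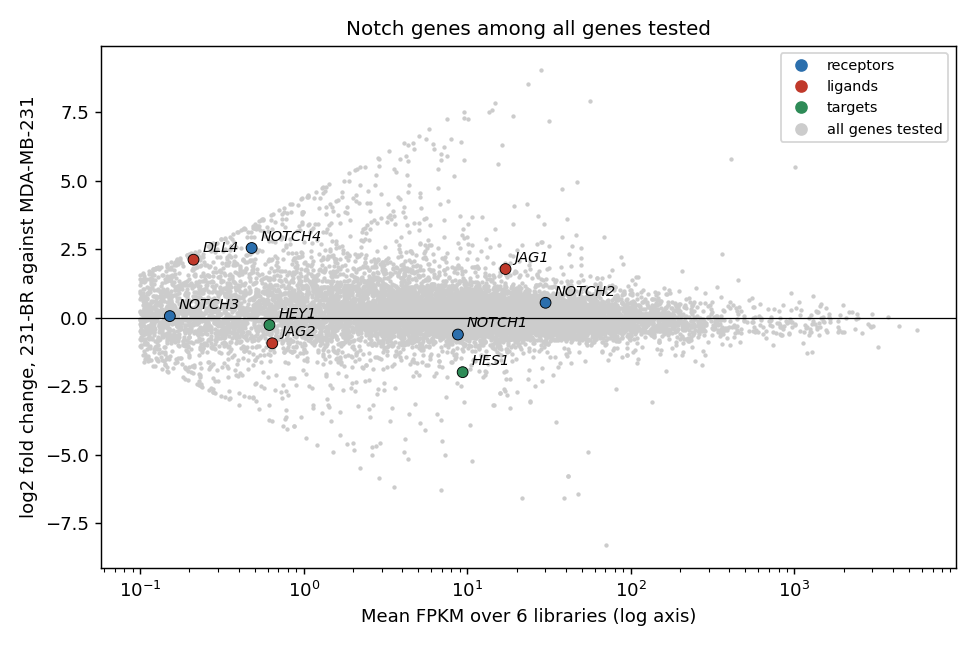
Log2 fold change of FPKM + 0.1, 231-BR against MDA-MB-231, over the mean FPKM of the 6 libraries (log axis) for the 13465 genes tested (grey) and the 9 Notch genes tested (receptors blue, ligands red, targets green). JAG1 and HES1 lie at the upper and lower side of genes of like level, at 1.77 and -1.99, and NOTCH4 and DLL4 lie at the low end of expression.

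By distance of the centred log2 values over the 6 libraries, the genes near to HES1 among those tested included OSGIN1 and LAMA5, with distances of 0.099 and 0.11 log2 units. The genes nearest to NOTCH4 were GPR153, EFNB1 and GPM6A, with distances of 0.158, 0.158 and 0.161 log2 units. These are genes with a change of like size, over 6 libraries that fall into 2 groups.

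Of the other genes of the pathway, 65 were listed by role, 64 were in the table and 57 could be tested. By the same threshold 24 were higher and 26 were lower in 231-BR cells, or 87.7% of those tested beside 77.3% of all genes tested. The median log2 fold change was 0.05, beside 0.08, and 12 of the 57, or 21.1%, were called with an absolute log2 fold change over 1, beside 15.2% of all genes tested. Of these 12, DTX4 and HES2 passed the filter on low values only through the 231-BR libraries. Their means were 0.62 and 0.33 FPKM in 231-BR cells against 0.057 and 0.08 FPKM in the parental cells. The share of 21.1% includes both genes, so it is not read as a difference from the 15.2%. The genes that bring receptors and their partners to the membrane, cut the receptor and act with it in the nucleus thus moved in both directions, and no role moved in 1 direction in all its genes tested.

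**Figure D4:**
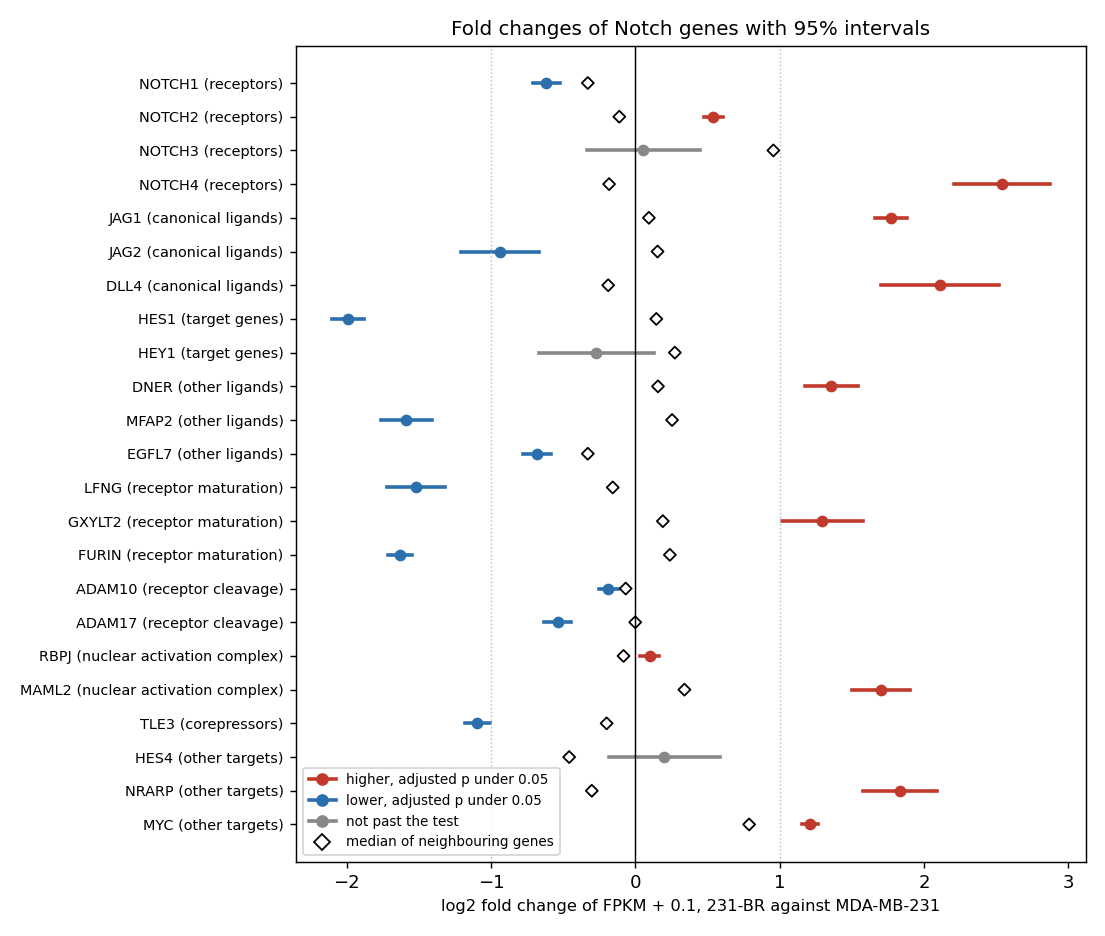
Log2 fold change of FPKM + 0.1, 231-BR against MDA-MB-231, with its 95% interval for the 9 Notch genes tested and 14 further genes of the pathway, red where higher, blue where lower and grey where not past an adjusted p of 0.05. Open diamonds give the median over the neighbouring genes, and dotted lines mark 1 and -1.

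NRARP, a target of Notch that encodes an inhibitor of the same pathway, had the largest increase among these genes with a mean of at least 1 FPKM in either line, although with a pseudocount of 1 its log2 fold change of 1.35 was below the 1.44 of MAML2. It had 4.73, 4.76 and 4.83 FPKM in the 231-BR libraries and 1.51, 1.29 and 1.04 FPKM in the MDA-MB-231 libraries. All 231-BR values were more than 3 times the highest MDA-MB-231 value, and the log2 fold change was 1.83 (SE 0.11, adjusted p = 1.8e-07 from limma). NRARP and HES1, both targets of RBPJ, thus changed in opposite directions. The level of HES1 was 0.739 to 0.796 times that of NRARP within the 231-BR libraries and 9.51 to 14.9 times within the MDA-MB-231 libraries.

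Of the 10 other targets, 8 could be tested, with 5 higher and 1 lower, or 75% called beside 77.3% of all genes tested. MYC, a growth regulator, rose from 36.5 ± 0.661 to 84.6 ± 0.718 FPKM (SD, n = 3 each), with a log2 fold change of 1.21 (adjusted p = 8.3e-11 from limma). The 40 neighbours of MYC on chromosome 8 had a median log2 fold change of 0.79, and their part in its change was not tested. CCND1, which encodes cyclin D1 and is named here after its values were seen, rose from 183 ± 0.573 to 237 ± 1.57 FPKM (SD, n = 3 each). HES4 had 1.98 to 2.57 FPKM in 231-BR cells against 1.5 to 2.59 FPKM in the parental cells, which overlap, with an adjusted p of 0.300 from limma. HES2 and HES7 were called higher and HES6 was called lower, and none of the 3 reached a mean of 1 FPKM in both lines. HES2 passed the filter on low values only through the 231-BR libraries. HES5 and HEY2 had means under the filter, and HEYL had 0.16 to 0.20 FPKM against 0.10 to 0.13 FPKM without passing the test. These 6 genes were also named after their values were seen.

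Among the noncanonical ligands, DNER rose from 1.43 ± 0.121 to 3.83 ± 0.190 FPKM (SD, n = 3 each), with a log2 fold change of 1.36 (adjusted p = 1.6e-07 from limma). DNER encodes a membrane protein first described in neurons. MFAP2, a glycoprotein of microfibrils, fell from 10.1 ± 0.798 to 3.30 ± 0.318 FPKM (SD, n = 3 each), with a log2 fold change of -1.59 (adjusted p = 3.7e-08 from limma). EGFL7, a secreted protein that binds Notch, had 10.1 ± 0.491 FPKM in 231-BR cells against 16.3 ± 0.200 FPKM in the parental cells (SD, n = 3 each). Of the 5 genes of this role that could be tested, 1 was higher and 3 were lower, or 80% called beside 77.3% of all genes tested.

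The enzymes that process the receptor on its way to the membrane were 3 higher and 4 lower of 8 tested. This is 87.5% called, beside 77.3% of all genes tested. FURIN, the protease that cuts the receptor precursor, fell from 22.6 ± 0.165 to 7.21 ± 0.204 FPKM (SD, n = 3 each), with a log2 fold change of -1.63 (adjusted p = 1.6e-10 from limma). LFNG, a Fringe glycosyltransferase that alters which ligands a receptor answers to, had 1.39, 1.56 and 1.51 FPKM in the 231-BR libraries and 3.96, 4.79 and 4.64 FPKM in the MDA-MB-231 libraries. Its ranges were apart by more than 2 FPKM, and the log2 fold change was -1.52 (adjusted p = 1.2e-07 from limma). Of the other Fringe genes, RFNG was not called, at 8.34 to 9.38 FPKM against 7.99 to 9.40 FPKM, and MFNG was under the filter. GXYLT2, a xylosyltransferase that extends sugars on the receptor, rose from 1.43 ± 0.255 to 3.63 ± 0.334 FPKM (SD, n = 3 each), with a log2 fold change of 1.29. POGLUT1, which adds the first glucose to the receptor and is named after its values were seen, rose from 4.41 ± 0.0058 to 10.1 ± 0.053 FPKM (SD, n = 3 each), with a log2 fold change of 1.18 beside a median of 0.58 for its neighbouring genes.

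All 8 genes of receptor cleavage were called, 3 higher and 5 lower, beside 77.3% of all genes tested, and their absolute log2 fold changes were under 1. ADAM10, the protease of the first cut, had 24.9 ± 0.272 FPKM in 231-BR cells against 28.3 ± 0.639 FPKM in the parental cells (SD, n = 3 each). ADAM17 had 12.1 ± 0.290 and 17.6 ± 0.741 FPKM (SD, n = 3 each), with a log2 fold change of -0.54 (adjusted p = 9.2e-07 from limma). Among the genes of gamma-secretase, of which those named here were chosen after their values were seen, PSEN2 and APH1B were higher, and NCSTN, APH1A and PSENEN were lower. PSEN2 rose from 4.94 ± 0.329 to 9.76 ± 0.243 FPKM (SD, n = 3 each).

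In the nuclear complex, RBPJ had 42.0 ± 1.08 FPKM in 231-BR cells against 39.2 ± 0.946 FPKM in the parental cells (SD, n = 3 each), with a log2 fold change of 0.10 (adjusted p = 0.0134 from limma). This call was lost after median-of-ratios scaling (adjusted p = 0.637), after quantile normalization (adjusted p = 0.0855) and without 231-BR replicate 1 (adjusted p = 0.0541). MAML2, a Mastermind-like coactivator, rose from 2.77 ± 0.377 to 9.20 ± 0.311 FPKM (SD, n = 3 each), with a log2 fold change of 1.70 (adjusted p = 5.2e-08 from limma). Its relative MAML1, named after its values were seen, had 17.5 ± 0.466 FPKM in 231-BR cells against 23.1 ± 0.648 FPKM in the parental cells (SD, n = 3 each) and was called lower. Of the 7 genes of the complex, 4 were higher and 2 were lower, or 85.7% called beside 77.3% of all genes tested. Among the corepressors 3 of 9 were higher and 5 were lower, or 88.9% called beside the same 77.3%. TLE3, a Groucho-type corepressor of HES proteins, fell from 16 ± 0.136 to 7.44 ± 0.222 FPKM (SD, n = 3 each). TLE1 of the same family, named after its values were seen, rose from 13.6 ± 0.612 to 25.5 ± 0.499 FPKM (SD, n = 3 each), TLE2 was not called and TLE4 was under the filter. The genes of ligand endocytosis were 1 higher and 2 lower of 3 tested, and those of receptor turnover and inhibition were 4 higher and 4 lower of 9. These are 100% and 88.9% called, beside 77.3% of all genes tested. DTX4, called higher in the latter role, passed the filter on low values only through the 231-BR libraries.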

How the data were processed

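The 6 RNA libraries comprised 3 from 231-BR and 3 from MDA-MB-231 cultures. The authors used SOAPnuke to filter reads and HISAT2 2.0.4 and Bowtie2 2.2.5 to align them (versions and the build GRCh38.p12 are from the submitters' processing notes), and deposited FPKM per gene with 2 decimals. The program that computed the FPKM is not given in the sources used here. The matrix and the library files held the same values. Libraries were grouped by title, since the number in the cell line field runs from 231 to 233 over the replicates of either line.

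The main test was limma 3.58.1 in R 4.3.3 (lmFit, then eBayes with trend) on log2(FPKM + 0.1), with the cell line as the sole term, over genes whose mean FPKM reached 0.1. P-values were adjusted by Benjamini-Hochberg over these genes. Read counts were not used here, so the fit is not the DESeq2 test of the authors. The fit was tested on simulated data. Shares, ratios and motif counts, made with Python 3.11.15 and pandas 2.3.3, have no test. Neighbouring genes, each with a mean of 1 FPKM or more, were ordered by RefSeq on GRCh38.p14. With 3 libraries against 3, an exact permutation test of a single value cannot give a p below 0.1, so none was run.

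The members, lists and tests were chosen with earlier results of these data known. Named were all 10 members, the 5 largest increases and 5 largest decreases among pathway genes whose mean FPKM reached 1 in either line, RBPJ, ADAM10, ADAM17, NRARP, HES4, and the 3 genes nearest to the members with the largest increase and decrease. Some results are not reported here. Alternatives were other pseudocounts, filters, scalings and criteria, eBayes without the trend, a replicate term, and each library left out.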

Additional observations from a re-analysis of the deposited data

How the results depend on the processing

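NOTCH1, NOTCH2, NOTCH4, JAG1, JAG2, DLL4 and HES1 kept their direction and an adjusted p under 0.05 from limma in every alternative in which they could be tested. Of these, NOTCH4 and DLL4 passed the filter on low values only through the 231-BR libraries, where they were high. The log2 fold change ran from 1.66 to 1.80 for JAG1 and from -2.17 to -1.77 for HES1. With each library left out in turn, 4 members were higher, 3 were lower and 2 met the criteria of the study each time, and 21 to 23 pathway genes were higher and 25 to 26 were lower. A filter at a mean FPKM of 1 left 2 members higher and 2 lower, since NOTCH4, DLL4 and JAG2 were then not tested. Quantile normalization shifted the all-gene median of the log2 fold change by -0.13 and the share of higher genes among those called from 57.4% to 45.9%, and gave NOTCH3 a log2 fold change of -0.22 and HES4 one of -0.15, both not past the test. Without 231-BR replicate 3 that of NOTCH3 was -0.0082, and the values with each library left out ran from -0.0082 to 0.10. HES4 passed the test without MDA-MB-231 replicate 3 (0.39, adjusted p = 0.0325 from limma). The causes were not tested. The deviations of same-numbered libraries from the mean of their line had correlations across genes of 0.087, -0.040 and -0.106. Those of differently numbered libraries ran from -0.154 to 0.183. With so few libraries per line this cannot decide whether the numbers pair the libraries, which is not stated. With the replicate block, 4 members were higher and 3 were lower, 2 met the criteria, and 23 pathway genes were higher and 26 lower. The pathway counts moved with the scaling. From 24 higher and 26 lower in the main fit, they became 20 and 26 after median-of-ratios scaling. After quantile normalization 19 pathway genes were higher and 27 were lower. The unknown depth and the 2 decimals limit the genes under 0.1 FPKM.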
